A study of Arabidopsis thaliana with 6 samples.

Results

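The chloroplast and the mitochondrion of a plant cell keep small genomes of their own, and 92 of the 22746 non-control probe sets of the Affymetrix ATH1 array named a single gene of one of them. A probe set is the group of short probes that the array reads as 1 transcript. Members were chosen by annotation alone, whatever their level: 69 probe sets matched 69 chloroplast genes by gene number, of 78 protein-coding genes in the RefSeq annotation, and 23 matched 16 of 32 mitochondrial genes by symbol. No member named a ribosomal or transfer RNA (0 probe sets). A further 20 probe sets named several genes with at least 1 in an organelle, among them the genes that the chloroplast genome holds in 2 copies (rps12, rpl2, rpl23, rps7, ndhB, ycf1, ycf2), and are not members.

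RNA came from shoots of Arabidopsis thaliana seedlings, 2 weeks old and of the Col-0 background, that all carried the same estradiol-inducible MYB112 construct (MYB112-IOE, line 1). MYB112 is a transcription factor of the R2R3-MYB family, and the series looked for genes that respond early to it. Seedlings were grown on agar at 22 °C in constant light (100 µmol m-2 s-1) and kept in shaken liquid medium for 16 h before treatment. The groups were 10 µM β-estradiol for 3 h (1 array), DMSO for 3 h (1 array), β-estradiol for 5 h (2 arrays) and DMSO for 5 h (2 arrays). None of the sources used here gives the dose of DMSO, all arrays come from 1 transgenic line, and plants without the construct that received estradiol were not analysed here.

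Chloroplast genes encode core subunits of both photosystems, the cytochrome b6f complex, the NDH complex of cyclic electron flow, the ATP synthase and Rubisco, together with part of the ribosome and of the RNA polymerase that express them. Most partner subunits and the regulators of organelle gene expression are encoded in the nucleus. Plastid genes are largely transcribed in operons and their RNA levels depend strongly on processing and stability. Mitochondrial genes encode parts of the respiratory chain and factors of cytochrome c assembly.

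The arrays formed 3 pairs of an estradiol and a DMSO array with the same time and number: the 3 h pair and the pairs of replicate 1 and replicate 2 at 5 h. The lowest value of an array, at which many probe sets sat, was 2.1 in both 3 h arrays, 2.14 in both arrays of 5 h replicate 1 and 2.16 in both arrays of 5 h replicate 2, so the pairs were treated as normalized separately. Of the shoot markers listed, the annotation named the nuclear genes LHCB4.1, LHCB4.2 and LHCB4.3, which encode antenna proteins of photosystem II. LHCB4.1 lay at 12.72 to 13.48 and LHCB4.2 at 12.63 to 13.2 (log2), but LHCB4.3 lay at only 5.0 to 5.84. The nuclear gene RCA (Rubisco activase), not among the listed markers, lay at 13.46 to 13.84. The root markers EXPA7 and EXPA18, expansins of root hair cells, were at or near the lowest value, at most 2.96. MYB112 itself was named on 0 probe sets in the annotation used, so its level is not analysed here.

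Most chloroplast members lay high on every array, whereas most mitochondrial members lay low. The median chloroplast member lay at percentile 83.0 of all non-control probe sets in the estradiol array and 82.5 in the DMSO array at 3 h. In the 5 h pairs the percentiles were 94.8 with estradiol and 94.6 with DMSO in replicate 1, and 87.4 and 88.7 in replicate 2. Above the 95th percentile lay 22 members in each 3 h array, 34 in the estradiol and 32 in the DMSO array of replicate 1, and 21 in each array of replicate 2. All 69 chloroplast members passed the filter on low values, which asked for 2 arrays at a log2 value of 3.56 or more, the 40th percentile over all arrays.

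The ends of the chloroplast range were held by atpB and atpE, which encode the β and ε subunits of the ATP synthase, and by ndhK and rps14, which encode a peripheral subunit of the NDH complex and a protein of the small ribosomal subunit. The value of atpB ranged over the 6 arrays from 13.57 to 14.15 and that of atpE from 14.03 to 14.34. At the low end ndhK ranged from 3.06 to 7.28 and rps14 from 4.01 to 5.45. The psbA gene, which encodes the D1 protein of photosystem II, lay at 7.63 to 9.36, and rbcL, which encodes the large subunit of Rubisco, at 7.65 to 9.88. These values depend on the probes of each probe set and give no order of transcript abundance between genes.

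**Figure D1:**
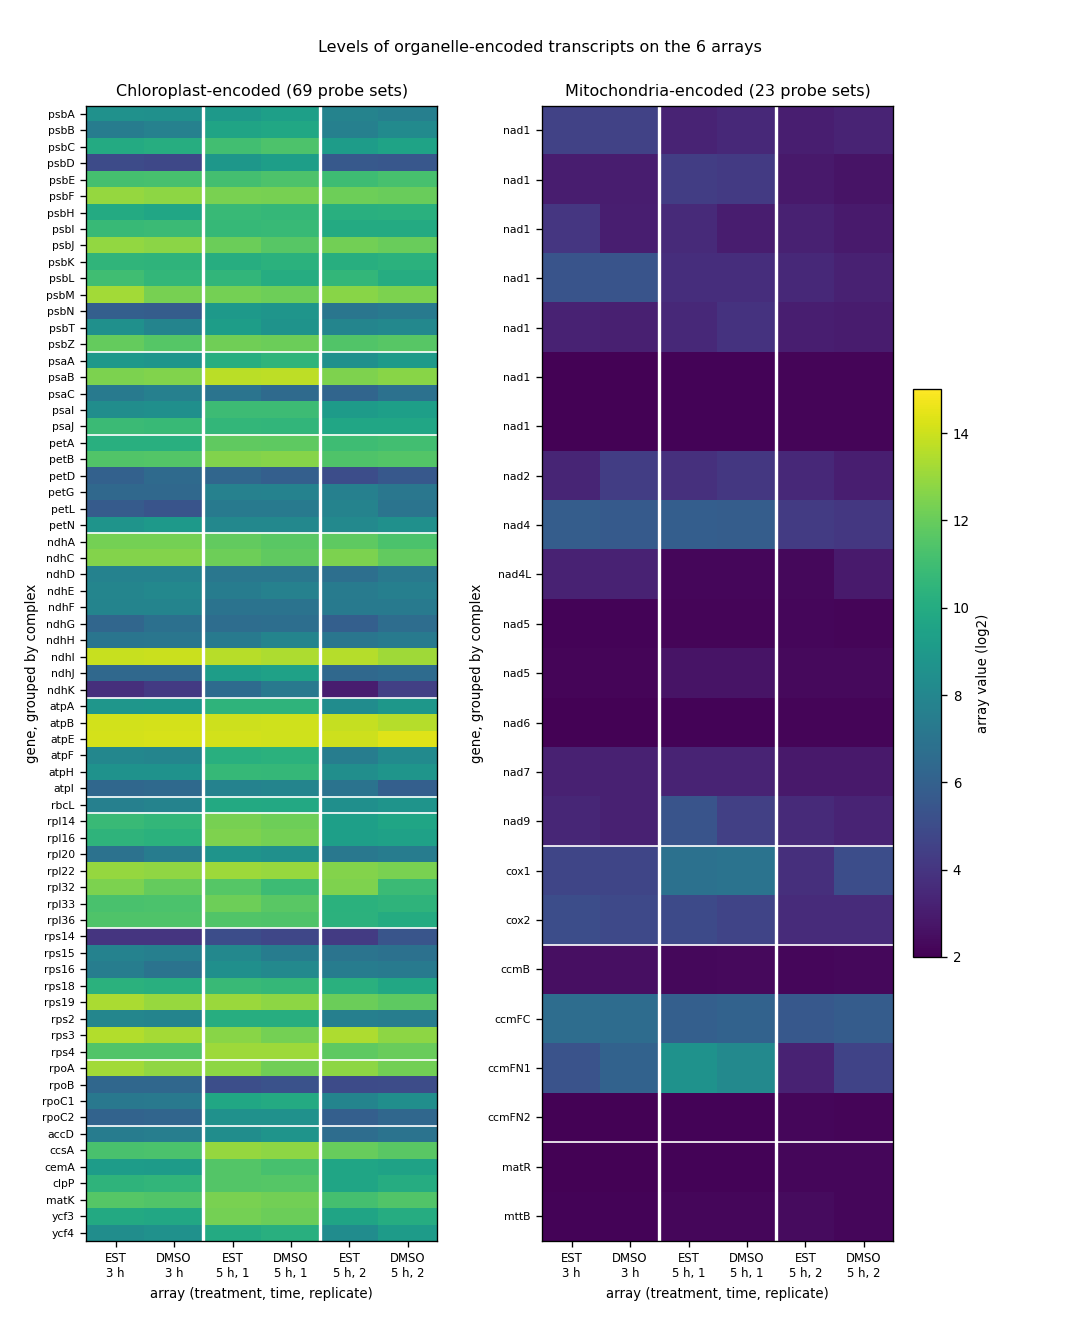
Array values (log2, colour scale) of the 69 chloroplast (left) and 23 mitochondrial (right) probe sets, 1 row each, grouped by complex, in the 6 arrays, with estradiol (EST) left of DMSO in each pair. Colour differs more between pairs than within them, as for psbD, and mitochondrial rows are mostly dark, with array medians of 2.91 to 3.32.

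The largest differences among chloroplast transcripts lay between pairs and not between treatments. The level of psbD, which encodes the D2 protein of photosystem II, was 4.95 in the estradiol and 4.80 in the DMSO array at 3 h. In the 5 h pairs it was 8.89 with estradiol and 9.31 with DMSO in replicate 1, and 5.62 and 5.54 in replicate 2. Both arrays of replicate 1 stood far above the other 4, and within each pair the treatments differed by at most 0.42. The ribosomal protein gene rpl16 was 10.45 in the estradiol and 10.32 in the DMSO array at 3 h, 12.49 and 12.27 in replicate 1, and 9.35 and 9.44 in replicate 2.

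Across the 69 genes the mean of the replicate 1 pair exceeded that of the replicate 2 pair at 5 h by a median of 0.89 on the log2 scale, and by at least 1 in 32 genes. Over the 14520 probe sets that passed the filter on low values, the median was 0.10 and 11.1% differed by at least 1 in that direction. The chloroplast range ran from -0.61 for rps3 to 3.52 for psbD, with ndhK at 3.15, rpl16 at 2.99, ndhJ at 2.87 and rpl14 at 2.76. Against the 3 h pair, the replicate 1 pair was higher by a median of 0.78, while the median over all tested probe sets was -0.44. In 61 of the 69 genes the range of the 3 pair means, with a median of 1.19, was wider than the largest difference between estradiol and DMSO in any pair. This count was not made over all tested probe sets. The arrays of a pair deviated together over all 14520 (r = 0.94, 0.93 and 0.91), so it is not particular to chloroplast genes that pairs differ. Time, growth, sample handling and separate normalization cannot be told apart here as sources of the shift between pairs, and in a whole shoot neither can fewer green cells and less RNA per cell, so it is given without a test.

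Between estradiol and DMSO, chloroplast transcripts as a group differed little. The median difference between estradiol and DMSO over the 69 genes was 0.00 at 3 h, and at 5 h it was 0.04 in replicate 1 and -0.13 in replicate 2, where all tested probe sets had medians of -0.01, 0.00 and -0.04. The mean over the 3 pairs ranged from -0.87 for ndhK to 0.94 for rpl32. It was above 0 for 32 genes and below 0 for 37, where 6368 of all 14520 tested probe sets had a mean above 0 and 7878 below.

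No organelle gene passed the test in any comparison. In limma's moderated test of estradiol against DMSO at 5 h, 0 of 78 organelle probe sets reached an adjusted p under 0.05, where 0.0071% of all tested probe sets did. Over both times with time as a covariate the count was 0 of 80, against 0.00689% of all. At an unadjusted p under 0.05, 4 members (rpoA, psbL, rpl32 and ndhC) were counted at 5 h, where the share of all probe sets was 1.15%, and 3 (rpoA, psbL and rpl32) over both times, where it was 1.9%. With the pair as a block, 0 members and 0% of all probe sets passed in either fit. The unadjusted counts were then 13 members in each fit, against 8.29% of all at 5 h and 9.75% over both times. The labels call the samples biological replicates without saying that each came from its own flask, so these p-values measure only the spread between these samples.

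Direction over the 3 pairs was counted next, without a test. Of the 69 genes, 15 (21.7%) were higher with estradiol in all 3 pairs, against 12.1% of all tested probe sets, and 16 (23.2%) were lower in all 3, against 17.1%. With 1 pair left out, the counts over the other 2 were 20 higher and 21 lower without the 3 h pair, 18 and 27 without replicate 1 at 5 h, and 24 and 18 without replicate 2 at 5 h. After quantile normalization 17 genes were higher and 13 lower in all 3 pairs, and after centring each array on its other probe sets 15 and 19. Counts with a pair left out or after other normalization, here and for the complexes below, were not made over all tested probe sets. They show only how far the counts move with the setting. Across the 69 genes, the differences of the 3 h pair correlated with those of replicate 1 at r = 0.42 (Spearman 0.45) and with those of replicate 2 at 0.51 (0.51), and those of the 5 h replicates with each other at 0.42 (0.37). The same correlations over all 14520 probe sets were 0.26 (0.16), 0.30 (0.22) and 0.37 (0.28). These are descriptions across genes that share arrays and a normalization, and genes are not independent replicates.

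**Figure D2:**
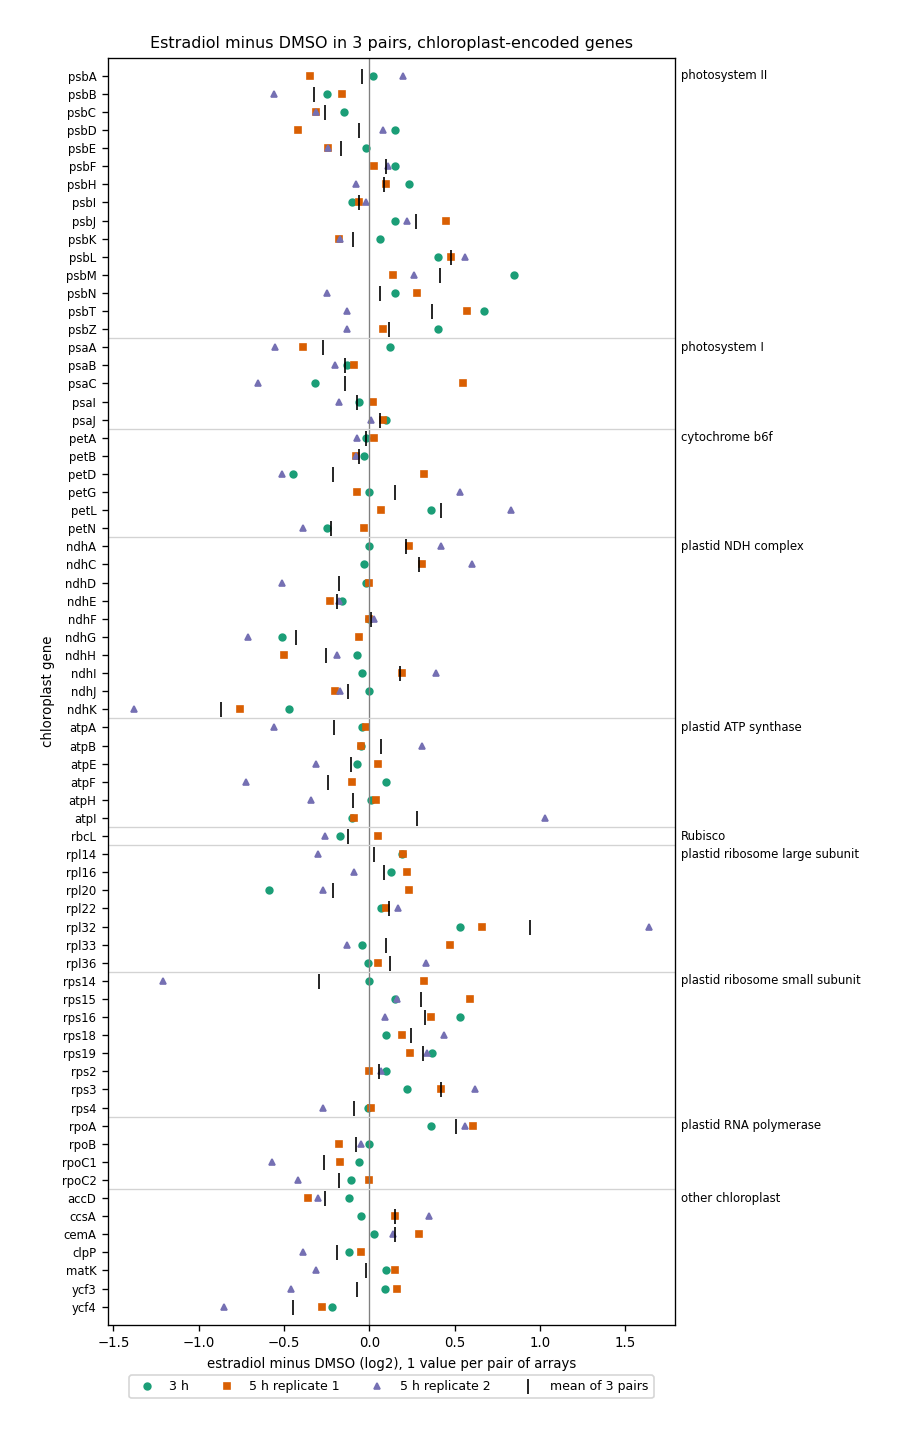
Difference between estradiol and DMSO (log2) in each pair for the 69 chloroplast genes, grouped by complex: circles for 3 h, squares for replicate 1 and triangles for replicate 2 at 5 h, with a bar at the mean of the 3. Points scatter on both sides of zero, rpl32 reaches 1.64 and ndhK -1.38 in replicate 2, and 14 of the 15 ribosomal squares lie above zero.

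Photosystem II genes lay on both sides of zero. Of 15, 4 were higher and 4 lower in all 3 pairs, where the shares of all tested probe sets were 12.1% and 17.1%. The median of the mean differences was 0.06. After quantile normalization 3 were higher and 2 lower in all pairs, and without the 3 h pair the median turned to -0.03. The genes lower in all pairs included psbB and psbC, which encode the chlorophyll-binding inner antenna proteins CP47 and CP43, psbE, the α subunit of cytochrome b559, and the small subunit gene psbI. The genes higher in all pairs were psbF (the β subunit of cytochrome b559), psbJ, psbL and psbM. These encode small subunits too, so genes of small subunits lay in both sets.

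The photosystem II gene with the highest mean difference was psbL, whose product sits at the interface of the photosystem II dimer. Its values were 11.03 with estradiol and 10.63 with DMSO at 3 h, 10.55 and 10.07 in replicate 1, and 10.63 and 10.07 in replicate 2. Estradiol was the higher array of every pair, although over the pairs the highest DMSO value equalled an estradiol value. The mean difference was 0.48 ± 0.08 (SD, n = 3 pairs). Over both times limma gave an unadjusted p = 0.00186 and an adjusted p = 1, and with a block for the pair an adjusted p = 0.50. In psbB, by contrast, the estradiol array was lower by 0.25 in the 3 h pair and by 0.16 and 0.56 in the 5 h pairs, a mean of -0.32 ± 0.21 (SD, n = 3 pairs).

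Within this group psbM, another small subunit of the dimer interface, had its widest difference at 3 h, where it was 13.20 with estradiol and 12.35 with DMSO. At 5 h it was 12.29 with estradiol and 12.15 with DMSO in replicate 1, and 12.68 and 12.42 in replicate 2. The difference was thus 0.85 at 3 h and 0.14 and 0.26 at 5 h, and without the 3 h pair its mean was 0.20, against 0.42 with it. The core proteins D1 and D2 had mixed signs: psbA differed by 0.02, -0.35 and 0.20 and psbD by 0.15, -0.42 and 0.08 in the 3 h, replicate 1 and replicate 2 pairs.

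Photosystem I and the cytochrome b6f complex held members of even and of mixed direction. Of 5 photosystem I genes, psaJ, a small subunit, was higher in all 3 pairs by 0.01 to 0.10, and psaB, one of the large reaction centre proteins, was lower in all 3 by 0.09 to 0.20. Its partner psaA differed by 0.12 in the 3 h pair, and its 5 h differences were -0.39 and -0.55. The iron-sulfur subunit gene psaC differed by -0.32 at 3 h, and by 0.55 in replicate 1 and -0.65 in replicate 2. Among 6 cytochrome b6f genes, the small subunit gene petL had the highest mean, 0.42 ± 0.38 (SD, n = 3 pairs), with values of 5.72 with estradiol and 5.36 with DMSO at 3 h, 7.38 and 7.31 in replicate 1, and 7.81 and 6.98 in replicate 2. Without replicate 2 its mean was 0.22. The small subunit gene petN had the lowest, -0.22 ± 0.18. The genes of the catalytic subunits, petA (cytochrome f) and petB (cytochrome b6), stayed within 0.08 in every pair. The subunit IV gene petD differed by -0.45, 0.32 and -0.51, and the small subunit gene petG by 0.00, -0.07 and 0.53.

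The NDH complex, which returns electrons from ferredoxin to the plastoquinone pool, had members on both sides of zero. Of its 10 genes, 4 (ndhE, ndhG, ndhH and ndhK) were lower with estradiol in all 3 pairs and 0 were higher in all 3. The shares of all tested probe sets were 17.1% lower and 12.1% higher. The median of the 10 mean differences was -0.15, and -0.06 without replicate 2 at 5 h. The counts of genes higher in all pairs were 2 after quantile normalization and 1 after centring, since the 3 h differences of several members were at or near 0.

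The lowest mean difference measured among chloroplast genes was that of ndhK. It was 3.76 with estradiol and 4.23 with DMSO at 3 h, 6.52 and 7.28 in replicate 1, and 3.06 and 4.44 in replicate 2. Each estradiol array was lower than its DMSO array, while both arrays of replicate 1 were above all the others. The mean was -0.87 ± 0.46 (SD, n = 3 pairs), with the widest difference, -1.38, resting on an estradiol value of 3.06 that lies below the filter value of 3.56. Without that pair the mean was -0.62. Over both times limma gave an SE of 1.16 and an adjusted p = 1 without a block, and an SE of 0.21 and an adjusted p = 0.50 with it.

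Its neighbour ndhC, a membrane subunit, went the other way at 5 h. It was 12.57 with estradiol and 12.60 with DMSO at 3 h, 12.13 and 11.82 in replicate 1, and 12.46 and 11.86 in replicate 2. Both 5 h estradiol arrays were above both 5 h DMSO arrays, a separation not counted over all probe sets, and at 3 h the DMSO array was higher by 0.03. The 5 h difference was 0.46 (SE 0.16, n = 2 arrays per treatment, limma unadjusted p = 0.0445, adjusted p = 1). The membrane-arm gene ndhA and the iron-sulfur subunit gene ndhI were higher at 5 h too, ndhI by 0.19 and 0.39 and ndhA by 0.23 and 0.42, with -0.04 and 0.00 at 3 h, and neither passed the test.

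Among 6 ATP synthase genes the differences at 3 h and in replicate 1 lay between -0.10 and 0.10, and those in replicate 2 at 5 h were wider. In that pair atpI, which encodes the membrane subunit a, was 6.95 with estradiol and 5.92 with DMSO, a difference of 1.03, whereas in the 3 h and replicate 1 pairs it was -0.10 and -0.09. Without replicate 2 its mean turned to -0.10, against 0.28 with it. The lowest mean, -0.24 ± 0.43 (SD, n = 3 pairs), was that of atpF, which encodes subunit b of the stator and differed by 0.10, -0.10 and -0.72. The Rubisco gene rbcL differed by -0.17, 0.05 and -0.26.

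The ribosomal protein genes were more often higher than lower with estradiol. Of 15 genes, 12 had a mean difference above 0, 7 were higher in all 3 pairs and 0 were lower in all 3. Of all tested probe sets, 12.1% were higher and 17.1% lower in all 3, and 6368 of 14520 had a mean above 0. The median mean difference was 0.11, against -0.02 over all tested probe sets, and was 0.17 without the 3 h pair and 0.18 without replicate 2 at 5 h. After quantile normalization 12 means were again above 0 and 8 genes were higher in all 3 pairs, and after centring 12 and 7. In replicate 1 at 5 h, 14 of 15 were higher and 1 was equal, while at 3 h 10 were higher and in replicate 2 at 5 h 9 were. Over the 14520 probe sets tested, 6931 were higher in replicate 1, 5184 at 3 h and 5923 in replicate 2. Without the replicate 1 pair, 8 of the 15 genes were higher and 3 lower in both remaining pairs. The 5 probe sets of ribosomal protein genes that the genome holds in 2 copies (rps12, rpl2, rpl23 and rps7), which are not members, had 1 mean above 0 and 4 below, and 0 were higher in all 3 pairs. Of the 15, 0 passed the test. The 7 were rpl22 and rpl32 of the large subunit and rps3, rps15, rps16, rps18 and rps19 of the small subunit.

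The highest mean of all chloroplast genes was that of rpl32, 0.94 ± 0.61 (SD, n = 3 pairs). Its values were 12.44 with estradiol and 11.91 with DMSO at 3 h, 11.57 and 10.91 in replicate 1, and 12.50 and 10.86 in replicate 2. Within 5 h, with 2 arrays per treatment, the estradiol arrays did not overlap the DMSO arrays. The share of all probe sets that did so was not counted, and rpl32 was named for its high mean. The replicate 2 pair held a 1.64 difference, the widest of all members. The limma difference over both times was 0.94 (SE 0.28, n = 3 arrays per treatment, unadjusted p = 0.0186, adjusted p = 1). Without replicate 2 the mean was 0.60.

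In the small subunit the highest mean was that of rps3. Its values were 13.48 with estradiol and 13.26 with DMSO at 3 h, 12.70 and 12.28 in replicate 1, and 13.41 and 12.79 in replicate 2, a mean of 0.42 ± 0.20 (SD, n = 3 pairs). For rps16 the differences were 0.53, 0.36 and 0.09, with a mean of 0.33 ± 0.22. The rps19 differences were closer together, 0.37, 0.24 and 0.34, with a mean of 0.32 ± 0.07. At the other end rps14 differed by 0.00, 0.32 and -1.21, and rpl20 by -0.59, 0.23 and -0.27, so their lowest means of -0.30 and -0.21 came with mixed signs.

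The 4 genes of the plastid-encoded RNA polymerase differed in direction. The α subunit gene rpoA was higher in all 3 pairs, with values of 13.21 with estradiol and 12.85 with DMSO at 3 h, 12.79 and 12.18 in replicate 1, and 12.80 and 12.24 in replicate 2. Its mean was 0.51 ± 0.13 (SD, n = 3 pairs), and it had the smallest unadjusted p of any member in both fits, 0.00612 at 5 h and 0.00162 over both times, with adjusted p = 1 in limma in each. A block for the pair gave an adjusted p = 0.50 over both times. The genes of the β, β′ and β″ subunits, rpoB, rpoC1 and rpoC2, had means of -0.08, -0.27 and -0.18, and rpoC1 was lower in all 3 pairs.

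**Figure D3:**
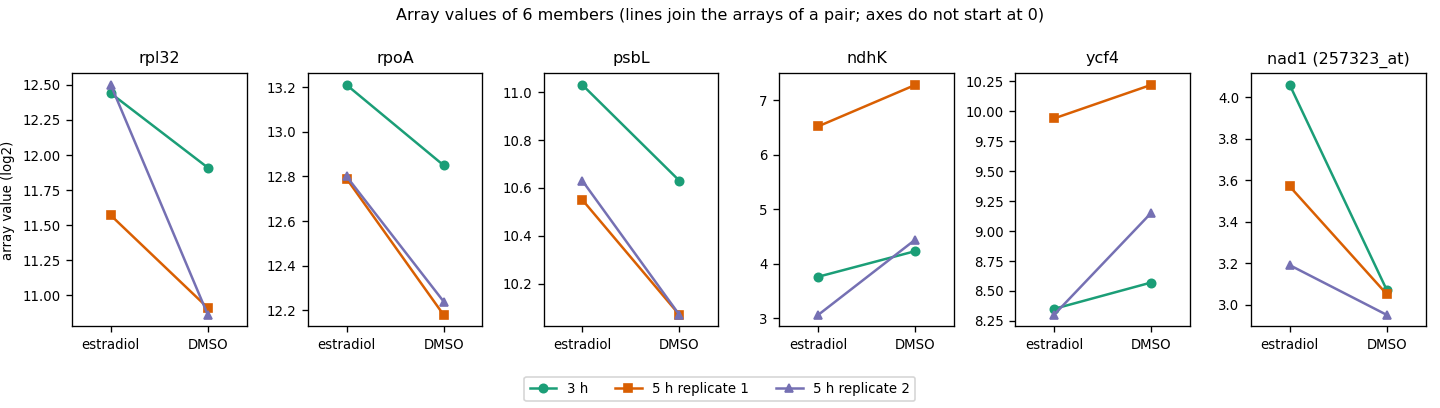
Array values (log2) of rpl32, rpoA, psbL, ndhK, ycf4 and the nad1 probe set with the widest mean difference, with estradiol left and DMSO right and a line joining the arrays of each pair. Lines fall to the right for rpl32, rpoA, psbL and nad1 and climb for ndhK and ycf4 in all 3 pairs, while the height of the lines differs between pairs.

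Of the 7 remaining chloroplast genes, cemA, which encodes an inner envelope protein, was higher in all 3 pairs by 0.03 to 0.29. Lower in all 3 were accD, the plastid-encoded subunit of acetyl-CoA carboxylase, clpP, a protease subunit, and ycf4, an assembly factor of photosystem I. The ycf4 values were 8.35 with estradiol and 8.57 with DMSO at 3 h, 9.94 and 10.22 in replicate 1, and 8.30 and 9.15 in replicate 2, with a mean of -0.45 ± 0.35 (SD, n = 3 pairs), and of -0.25 without replicate 2. The other photosystem I assembly factor, ycf3, had mixed differences of 0.09, 0.16 and -0.46, as did matK, which encodes an intron maturase, with 0.10, 0.15 and -0.31.

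Few members reached a 2-fold difference, and 0 did so in the same direction in all 3 pairs, where the shares of all tested probe sets were 0.0413% higher and 0.0826% lower. At 3 h only the mitochondrial nad2 reached it, lower by 1.00 with estradiol (0.461% of all tested probe sets were at least 2-fold lower and 0.213% higher). In replicate 1 at 5 h 0 members reached it, against 0.606% lower and 0.944% higher. In replicate 2 at 5 h, rpl32 and atpI were at least 2-fold higher (1.15% of all) and ndhK, rps14, cox1 and ccmFN1 at least 2-fold lower (1.98% of all). At 1.5-fold the count in all 3 pairs was 0 too, against 0.117% higher and 0.158% lower.

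The genes higher in all pairs were shorter at the median than those lower in all pairs, but the sets overlapped. The shortest gene, petN (90 bases), was lower in all pairs, and rps16 (1105 bases) was higher in all pairs. The 15 higher genes had a median gene span of 267 bases and the 16 lower genes one of 1302 bases. The gene span is the length from start to end in the RefSeq annotation, introns included. Over the 69 genes, span and mean difference correlated at a Spearman coefficient of -0.40 (Pearson -0.37), and the sign was the same in each pair (-0.30 at 3 h, -0.35 and -0.32 at 5 h).

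Among the 23 genes with the shortest spans, 90 to 279 bases, 16 had a mean above 0 and 9 were higher in all 3 pairs. Among the 23 with the longest, 1105 to 4131 bases, 5 had a mean above 0 and 9 were lower in all 3. The shares of all tested probe sets were 12.1% higher and 17.1% lower in all 3 pairs, and 6368 of 14520 had a mean above 0. The medians of the mean differences were 0.10 for the shortest, -0.02 for the 23 in between and -0.18 for the longest. The mean level of a gene correlated with its difference at 0.44 (Spearman and Pearson), and the shift in level between the 5 h pairs at -0.38 (Pearson -0.43). These coefficients have n = 69 genes that share the arrays, and level, span and the shift between pairs were not separated, so their part in the differences was not tested.

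**Figure D4:**
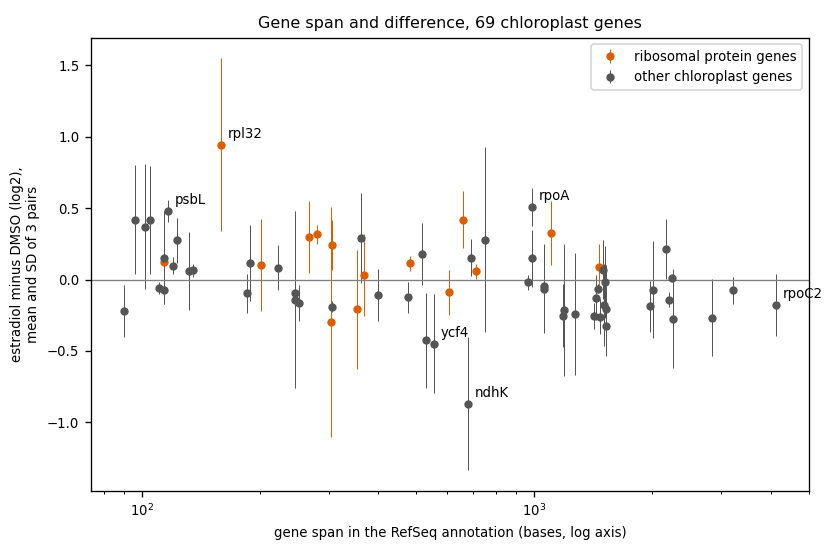
Mean difference between estradiol and DMSO (log2, with the SD of 3 pairs) of the 69 chloroplast genes against gene span (bases, log axis), with ribosomal protein genes in orange. Points above zero are more frequent on the left, where 16 of the 23 shortest genes lie above zero, than on the right, where 5 of the 23 longest do. Of all tested probe sets, 6368 of 14520 had a mean above zero.

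Many plastid genes are read as operons, and members of 9 well-known ones, chosen after their values had been seen, were set side by side. In the large ribosomal protein operon the 7 members (rps19, rpl22, rps3, rpl16, rpl14, rpl36 and rpoA) had a mean above 0, between 0.03 and 0.51. Of these, 4 were higher in all 3 pairs, against 12.1% of all tested probe sets. The genes rpl23 and rpl2 of this operon, duplicated in the genome and therefore not members, had means of -0.09 and -0.04. In the rpoB operon all 3 members had a mean below 0. Others were split: psbF, psbL and psbJ were higher in all 3 pairs and psbE, of the same operon, was lower in all 3, with means from -0.17 to 0.48. The means of the operon of ndhC, ndhK and ndhJ ran from -0.87 to 0.29, those of atpI, atpH, atpF and atpA from -0.24 to 0.28, and those of psbB, psbT, psbH, petB and petD from -0.32 to 0.37. All 3 members of the psaA operon (psaA, psaB and rps14) and both psbD and psbC had means below 0, and atpB and atpE had 0.07 and -0.11. Of all 14520 tested probe sets, 6368 had a mean above 0 and 7878 below 0, so a few means below 0 are no result about an operon. The list is not complete: the adjacent genes psaI, ycf4, cemA and petA had means of -0.07, -0.45, 0.15 and -0.02. The gene rps2, beside atpI, had 0.06.

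Neighbours on the genome resembled each other in their shift between the 5 h pairs and little in their difference between treatments. Over 68 pairs of adjacent members, the mean difference between estradiol and DMSO correlated at r = 0.04 (Spearman 0.08), and the level in replicate 1 minus that in replicate 2 at r = 0.40 (0.43). The genes from atpI to atpA were higher in replicate 1 by 1.36 to 2.38, and psbC and psbD by 1.85 and 3.52. Even so ndhC lay at -0.19 beside ndhK at 3.15, and rps3 at -0.61 beside rpl16 at 2.99. Adjacent members share the arrays and often a transcript, so these coefficients are given as a description.

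**Figure D5:**
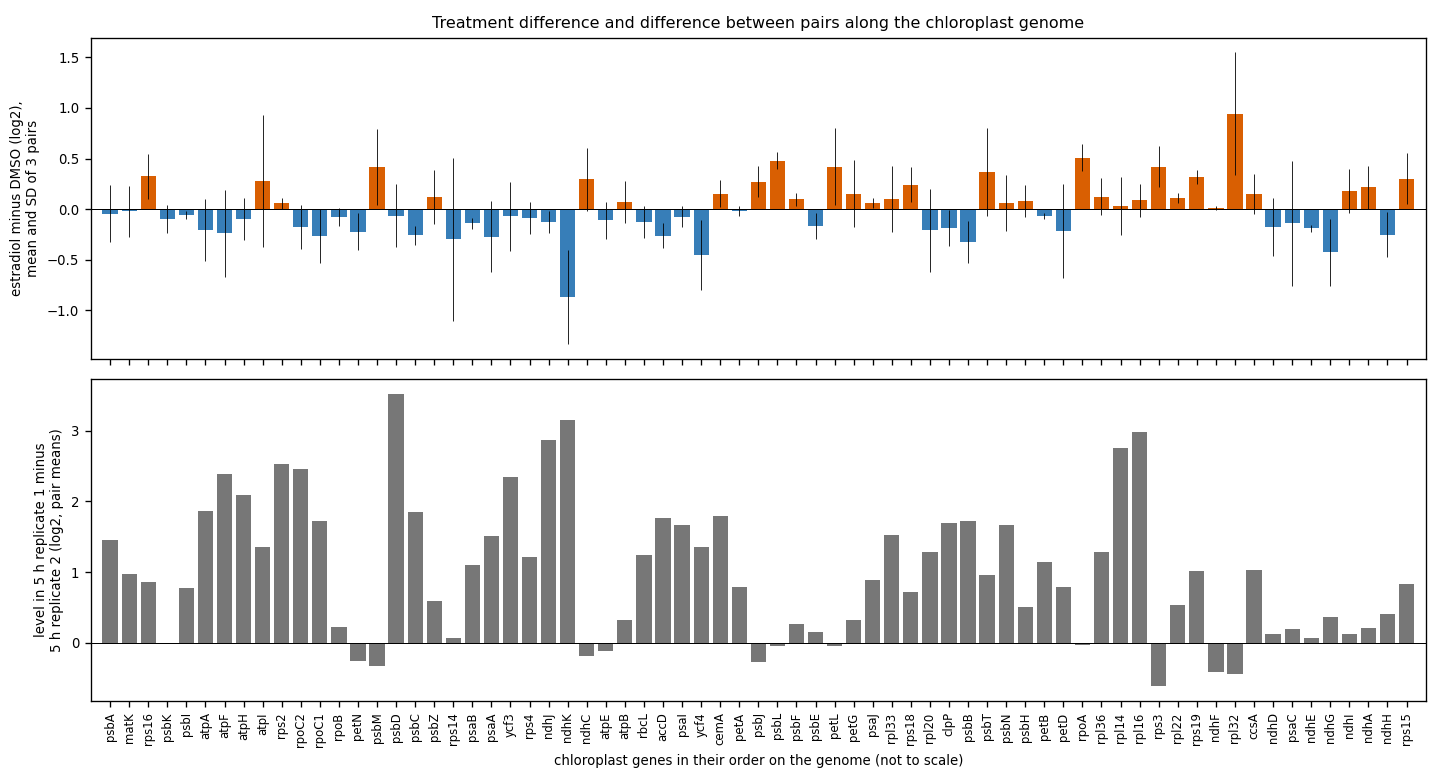
The 69 chloroplast genes in their order on the genome (not to scale). Above, bars give the mean difference between estradiol and DMSO (log2) with the SD of 3 pairs, orange above and blue below zero; below, bars give the level of the replicate 1 pair minus the replicate 2 pair at 5 h (log2), which runs in blocks of high neighbours such as atpI to atpA, up to 3.52 for psbD.

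Mitochondrial transcripts lay mostly low on the array. The median mitochondrial member lay between percentiles 37.1 and 38.3 on the 6 arrays, and 0 members lay above the 90th percentile. Of the 23 probe sets, 12 did not pass the filter on low values: 3 for nad1, 2 for nad5, and those for nad4L, nad6, nad7, ccmB, ccmFN2, matR and mttB. Between 7 and 8 probe sets per array sat within 0.1 of its lowest value, where equal values carry no order. The 7 probe sets that name nad1, a subunit gene of respiratory complex I whose parts are joined by trans-splicing, disagreed, with values from 2.1 to 5.40.

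Between estradiol and DMSO the median difference of the mitochondrial members was 0.00 in each pair. Of 23, 3 (13.0%) were higher in all 3 pairs and 0 were lower in all 3, where the shares of all tested probe sets were 12.1% and 17.1%. Those shares cover probe sets that passed the filter, which 12 of the 23 did not. The 3 were 1 probe set of nad1, nad4 and nad9, all of complex I, which holds 15 of the 23 probe sets. The other 12 of complex I had mixed signs or differences of 0. This nad1 probe set was 4.06 with estradiol and 3.07 with DMSO at 3 h, 3.57 and 3.05 in replicate 1, and 3.19 and 2.95 in replicate 2 at 5 h, a mean of 0.58 ± 0.38 (SD, n = 3 pairs). Each estradiol array was higher than all DMSO arrays, a separation not counted over all probe sets. However, the other 6 nad1 probe sets had means from -0.12 to 0.12, and this higher one passed the filter through 2 arrays alone, both with estradiol.

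The other wide mitochondrial differences were uneven over the pairs. For nad9 the values were 3.41 with estradiol and 3.20 with DMSO at 3 h, 5.37 and 4.45 in replicate 1, and 3.57 and 3.32 in replicate 2. For cox1, the catalytic subunit of cytochrome c oxidase, the differences were 0.01, -0.13 and -1.35, the last from 3.73 with estradiol against 5.08 with DMSO. The cytochrome c maturation gene ccmFN1 was 5.33 with estradiol and 6.10 with DMSO at 3 h, 8.64 and 8.14 in replicate 1, and 3.23 and 4.61 in replicate 2, so that its sign differed between the 5 h replicates. It also had the widest shift between the 5 h pairs of all members, with replicate 1 higher than replicate 2 by 4.47. Mixed signs were seen for nad2, lower at 3 h and with -0.31 and 0.40 at 5 h, and for cox2, with 0.20, 0.22 and -0.03.

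No difference between the times passed a test. The interaction in limma, the estradiol effect at 5 h minus that at 3 h, had an adjusted p under 0.05 for 0 of 80 members and for 0% of all tested probe sets, and an unadjusted p under 0.05 for 0 members, against 0.172% of all. The members with the smallest unadjusted p were psbM (-0.65, unadjusted p = 0.130), ndhC (0.49, unadjusted p = 0.154) and ndhI (0.33, unadjusted p = 0.238), each with an adjusted p = 1. With the pair as a block, 2 members had an unadjusted p under 0.05 (2.93% of all) and 0 an adjusted one. In 9 members (psbK, psaA, ndhC, ndhI, atpF, rpl36, ccsA, cox1 and ccmFC) the sign at 3 h was opposite to that in both 5 h pairs, 11.2% of the 80 members tested, against 16.7% of all tested probe sets. The 3 h groups hold 1 array each, whose spread was taken from the 5 h arrays.

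The nuclear genes listed for photosynthesis, respiration and organelle transcription, as far as the annotation named them, had mean differences between -0.26 and 0.26. Not all of them encode partner subunits of these complexes. Single pairs differed more, as NDB2 of the respiration list did by -0.63 at 3 h. Of 40 genes listed for the photosystems and their antenna, 7 were named (LHCB4.1, LHCB4.2, LHCB4.3, PSAE-1, PSAN, PSBW and PSBY), 0 passed the test, 0 were higher and 2 lower in all 3 pairs, and their means lay between -0.12 for LHCB4.2 and 0.05 for PSAE-1. Of all tested probe sets, 12.1% were higher and 17.1% lower in all 3 pairs. Only 0.00689% passed over both times, so 0 passing in any of these short lists is near that share. Of 16 listed for electron transport, ATP synthase and Rubisco, 5 were named and 0 passed. There the lowest mean, -0.26 ± 0.18 (SD, n = 3 pairs), was that of NdhN, a nuclear-encoded subunit of the same NDH complex as ndhK, and the highest, 0.04, that of ATPC1. The organellar RNA polymerase gene AT5G15700 was the single named gene of 19 listed for plastid transcription and of 2 listed for mitochondrial transcription, and it differed by -0.12, 0.14 and 0.76 without passing the test. Of 10 genes listed for mitochondrial respiration, 4 were named, with means from -0.20 for AT2G21640 to 0.00 for CYTC-2, and 0 passed.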

How the data were processed

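Transcripts were measured on 6 arrays, and groups were taken from the labels. The values deposited by the authors are log2 values, 1 for each probe set on each array. The submitters' processing notes name GCRMA and RMA, with no version. Base 2 was read from the range of the values, 2.1 to 15.35, because no source used here states it. How the labelled RNA was primed is not stated either. Probe sets were placed through the platform annotation and RefSeq's gene table for TAIR10.1, from which gene order and span were also taken. Of the probe sets, 8730 are not listed in that annotation and 54 could not be placed. No coordinates are printed, since no source used here gives the build of the platform annotation. Arrays give no read depth, and their number limits the precision.

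Tests used R 4.3.3 and limma 3.58.1 (lmFit and eBayes with trend, two-sided, Benjamini-Hochberg over all probe sets tested). Fits held 14078 probe sets at 5 h (4 arrays) and 14520 over both times (6 arrays, time as covariate). The scripts were tested on simulated data. Same-numbered arrays deviated together (r = 0.94, 0.93 and 0.91 over 14520 probe sets), so the numbers were taken to pair the samples and the pair entered as a block in an alternative fit. Other alternatives were quantile normalization, centring, other filters, no trend, and leaving out each array or pair. Differences within pairs were described without a test.

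Named genes were the highest and lowest mean difference of each complex, the 5 widest mean differences of each genome, members at least 1.5-fold apart in all pairs, the 3 smallest unadjusted p-values of each fit, and members below the filter. Other members named for their direction or place were chosen after their values were seen. Members and lists were chosen with earlier results of these data known.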

Additional observations from a re-analysis of the deposited data

Results flagged for a closer look

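In 9 of the 80 tested organelle members (11.2%) the difference between estradiol and DMSO had one sign at 3 h and the other in both 5 h pairs, where 16.7% of all tested probe sets did. The values below are the effect at 5 h minus that at 3 h (log2), with a limma adjusted p of 1 for each. Below zero were psbK (-0.24), psaA (-0.59), atpF (-0.51), cox1 (-0.75) and ccmFC (-0.19). Above zero were ndhC (0.49), ndhI (0.33), rpl36 (0.20) and ccsA (0.30). The single 3 h pair leaves the 3 h sign without a replicate.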

How the results depend on the processing

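With the pair as a replicate block, 0 organelle probe sets passed at 5 h, over both times or in the interaction, as without it, and the unadjusted counts were 13, 13 and 2 in place of 4, 3 and 0. At 5 h the unadjusted count was 0 with arrays centred, 2 without a trend, 3 after quantile normalization and without a filter, 4 with the stricter filter, and 1 to 5 with an array left out. Over both times it was 2 to 5 with an array left out and 3 or 4 otherwise. The count of members past an adjusted p of 0.05 was 0 under every alternative run (quantile normalization, centring, no filter, a filter at the 60th percentile, no trend, each array left out). Leaving out 1 of the 5 h arrays in the fit without a block left the pairs unbalanced, and the median chloroplast difference at 5 h, -0.05 with all arrays, was then -0.45 without estradiol replicate 1, 0.47 without DMSO replicate 1, 0.52 without estradiol replicate 2 and -0.39 without DMSO replicate 2. Members higher in all pairs used numbered 18 of 92 over 3 pairs and 23 to 28 with a pair left out, the most without replicate 2 at 5 h. Members lower in all pairs numbered 16, and 19 to 28 with a pair left out (25 without the 3 h pair, 28 without replicate 1 at 5 h), since agreement of 2 pairs is asked in place of 3; this count was added after seeing the data. At least 2-fold apart in any pair were 7 members, and 22 at 1.5-fold. Over all tested probe sets, the counts with a pair left out and those in any pair were not made. The median mean difference of the 69 chloroplast genes was -0.06 to 0.00 when a pair was left out. Some mean differences of single genes changed sign when a pair was left out. Without replicate 2 at 5 h, atpI went from 0.28 to -0.095 and rps14 from -0.30 to 0.16. Mitochondrial differences are limited by values near the lowest of the array.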

Other observations

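Probe sets that name several genes were not members, and their values are given here without a test. The 8 that name genes duplicated in the chloroplast genome had mean differences between estradiol and DMSO from -0.09 (rpl23) to 0.20 (ycf2, with 0.00, 0.74 and -0.13 in the 3 pairs), and 0 of them had the same sign in all pairs. Of the 11 that name a mitochondrial gene together with its copy on nuclear chromosome 2, the widest was the ribosomal protein gene rps12 with AT2G07675. It was 3.82 with estradiol and 3.02 with DMSO at 3 h, 2.40 in both arrays of replicate 1, and 3.41 with estradiol and 2.16 with DMSO in replicate 2 at 5 h. This probe set did not pass the filter on low values, and 2.16 is the lowest value of its array. The shift between pairs was present here too: rps7 of the chloroplast was 10.45 with estradiol and 10.56 with DMSO at 3 h, 13.27 and 13.20 in replicate 1, and 10.60 and 10.67 in replicate 2 at 5 h.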
